A study of Homo sapiens with 4 samples.

Results

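CD44, the main cell-surface receptor for the matrix polysaccharide hyaluronan, is 1 of 8225 genes that the Affymetrix HG-U95Av2 array reads with at least 1 probe set of their own, and 7 of the 12626 probe sets read it. These 7 are all the sets that the array annotation assigns to CD44 alone, and each is reported separately. CD44 was chosen by its known regulation by RBM35A and with the RBM35A differences on these arrays in view. All of its values below are therefore a description, with no test. The 7 probe sets read 1 gene in the same RNA, so they are not replicates of a condition.

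The RNA came from LS180, an established human colon carcinoma line. In RBM35A+ cells, a Tet-off system had switched RBM35A on by growth without doxycycline (Dox) for at least 6 days. RBM35A- cells, which the labels call parental, were kept in Dox, and it is not labelled whether these had the construct too. TRIZOL extraction gave the total RNA of both states. Sucrose gradients gave the polysomal RNA, which comes from transcripts loaded with several ribosomes. There was 1 array for each of the 4 combinations, so no difference has a replicate check, and Dox, RBM35A and any difference between the lines cannot be told apart. Whether the RBM35A+ cells were 1 clone is not given in the sources used here.

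CD44 spans the membrane once. Constant exons at both ends of the transcript encode its hyaluronan-binding domain and its membrane and cytoplasmic parts. A block of variable exons between them encodes an optional stretch of the extracellular stem. Mesenchymal cells and leukocytes mostly make the standard form, which skips the whole block, whereas epithelial cells include some of the variable exons. RBM35A, now named ESRP1, and its relative ESRP2 are epithelial RNA-binding proteins that promote this inclusion. In the intestine CD44 is found at the crypt base, is a target of Wnt signalling, and its variant forms act as co-receptors for growth factors. RefSeq lists 39 transcripts for CD44, against a median of 2 for the 8218 genes of the array found in its table, and 75 of those genes, CD44 included, have as many or more. No sequence is shown, since the sequences of the probes and of the variable exons were not used here, and neither was the place of each probe set along the transcript.

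The probe sets were designed from 4 GenBank records. The sets 1125_s_at, 1126_s_at and 40493_at came from 1 record, 31615_i_at and 31616_r_at from another, and 2036_s_at and 31472_s_at from 1 each. The suffix _s marks probes that several transcripts can share, and _r marks sets for which the usual rules of probe choice were relaxed. All values are on a log2 scale, and a set counts as measured where it reaches 5. By this measure 4 of the 7 sets were measured on all 4 arrays, 40493_at on the 2 total RNA arrays only, and 31615_i_at and 31616_r_at on none (0). Both unmeasured sets lay between 2.22 and 2.23 on every array, and nothing more can be said of them.

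Of the marker genes, 13 of 14 colon epithelial ones were measured on every array, the exception being KRT20. Of the leukocyte markers, 0 of 15 were measured on any array, PTPRC, CD3E and CD14 included. Of the fibroblast and endothelial markers 1 of 15 was measured, COL1A1, on the polysomal arrays only. The log2 of the summed level of the epithelial list was 15.5 on both total RNA arrays, 15.1 in polysomal RNA of RBM35A- cells and 14.9 in that of RBM35A+ cells. For the leukocyte list it lay between 6.54 and 6.63, and for the fibroblast and endothelial list between 6.59 and 6.99. No probe set was annotated to RBM35A or to ESRP2 alone, so only the labels give the state of the cells. The levels across probe sets correlated at 0.998 between the total RNA arrays and 0.999 between the polysomal ones (Pearson's r).

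In RBM35A+ cells 1 CD44 probe set, 1125_s_at, was higher in both RNA fractions, while the 4 other sets measured in total RNA were lower there. Of these, 3 were also measured in polysomal RNA, with differences between 0.04 and 0.29. The set 1125_s_at read 7.59 in total RNA of RBM35A- cells and 8.19 in that of RBM35A+ cells, a difference of 0.60 or 1.51-fold. In polysomal RNA it read 5.74 and 6.49, a difference of 0.75 or 1.69-fold. The RBM35A+ array was the higher one in each fraction, and in total RNA the difference lay just beyond the 1.5-fold line, which is at 0.585.

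The 4 other measured sets pointed the other way in total RNA, where 49.1% of 3853 measured probe sets were above 0. The set 1126_s_at, designed from the same record as 1125_s_at, read 8.04 in RBM35A- and 7.76 in RBM35A+ cells, a difference of −0.29. The set 31472_s_at read 8.53 and 8.25, a difference of −0.28. The set 2036_s_at read 8.28 and 8.10, a difference of −0.18. All of these were within 1.5-fold, and so was 40493_at, the lowest, at 6.11 and 5.63, a difference of −0.48 or 1.39-fold lower. With a floor of 6 in place of 5 its difference became −0.11, since its RBM35A+ value was then raised to the floor.

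The gauge used for such a difference was how far probe sets of 1 gene disagree. Where the sets of a gene read different isoforms or positions, this takes in more than error. CD44 is itself among the genes pooled. Pooled over the 438 genes with 2 or more measured sets, this disagreement corresponded to an SD of 0.21 for 1 set in total RNA. In polysomal RNA the SD was 0.19, over 407 genes. Disagreement of this kind says nothing of the spread between cultures. The differences of 1125_s_at and of 40493_at in total RNA exceeded this SD more than those of 1126_s_at and 31472_s_at, and that of 2036_s_at lay within it.

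**Figure D1:**
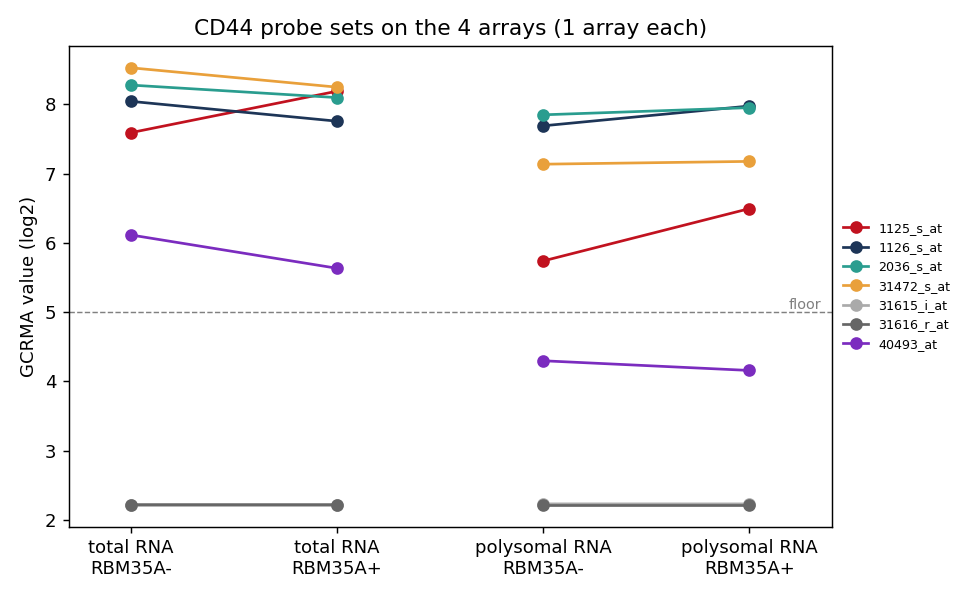
Deposited value (log2) of each CD44 probe set on the 4 arrays, 1 point an array, with lines joining RBM35A- to RBM35A+ within a fraction. The set 1125_s_at goes from 7.59 to 8.19 in total RNA and from 5.74 to 6.49 in polysomal RNA, while the other measured sets are lower in RBM35A+ total RNA and 31615_i_at and 31616_r_at lie near 2.2 throughout.

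In polysomal RNA the 3 other sets that could be measured had differences above 0, as did 55.1% of the 3871 probe sets measured there. The set 1126_s_at read 7.69 in RBM35A- and 7.97 in RBM35A+ cells, a difference of 0.29. The set 2036_s_at read 7.85 and 7.95, a difference of 0.10, and 31472_s_at read 7.14 and 7.18, a difference of 0.04. The differences of 2036_s_at and 31472_s_at lay within the SD of 1 probe set, and that of 1126_s_at lay above it. The set 40493_at read 4.30 and 4.16, below 5 on both arrays, so its difference in polysomal RNA was not measured. With a floor of 4 it would be −0.14, the 1 CD44 set below 0. The colon epithelial markers were lower on the same array: 11 of 13 were below 0, against 1451 of 3391 over all genes. Their median was −0.21 (−0.13 when a gene's probe sets were averaged), against 0.02 over all genes. CEACAM5 (−0.56) and KRT19 (−0.51) were lowest, CDH1 (0.10) and EPCAM (0.06) highest. Past 1.5-fold there were 0 in either direction, against 0.767% of all genes higher and 1.3% lower. In total RNA their median was −0.06 with 7 of 13 below 0, against 1636 of 3320 over all genes. They ran from CLDN3 (−0.44) and KRT18 (−0.34) to LGALS4 (0.16) and CDH1 (0.39, other probe set −0.94). In polysomal RNA beta-actin and GAPDH controls differed by −0.86 and −0.79 at the 5′ end and −0.02 and −0.13 at the 3′ end. The part of probe position in the shift of the markers was not tested, nor was the part of this shift in the CD44 values.

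By the 1.5-fold line, 1 of the 5 CD44 sets measured in total RNA was higher and 0 were lower. The background there was 1.51% of 3853 measured probe sets higher and 0.986% lower. In polysomal RNA 1 of 4 CD44 sets was higher and 0 were lower, against 0.723% of 3871 probe sets higher and 1.7% lower. Of 3549 probe sets measured in both fractions, 3 were at least 1.5-fold higher in both, or 0.0845%. They were 1125_s_at, a set of the pyruvate kinase gene PKM (0.68 and 0.84) and a set of the ubiquitin ligase gene UBE3B (1.04 and 0.59), and 1 set, of the cytochrome P450 gene CYP1A1, was lower in both. With a floor of 6 the polysomal difference of 1125_s_at became 0.49, under the line, since its RBM35A- value of 5.74 was raised to the floor. Nothing is read from these counts about CD44, since it was chosen with them known.

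**Figure D2:**
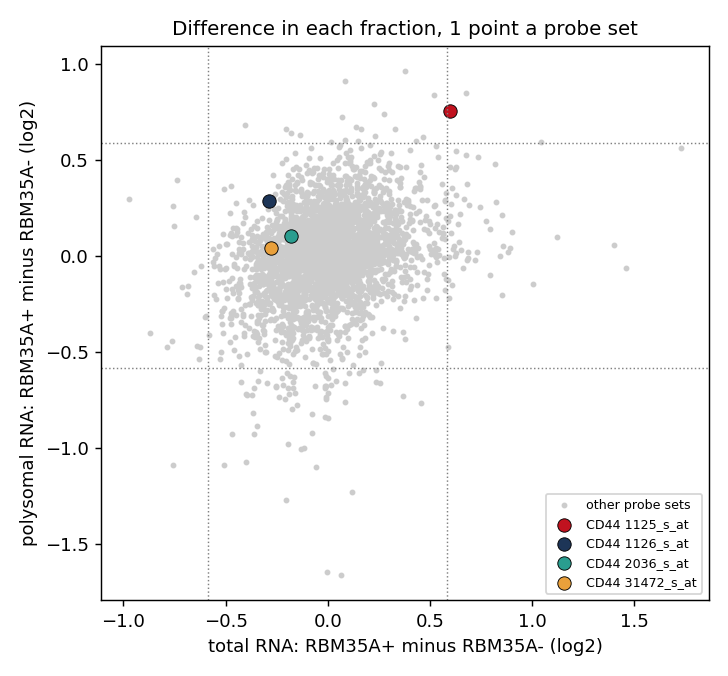
RBM35A+ minus RBM35A- (log2) in total RNA (x) and in polysomal RNA (y) for the 3549 probe sets measured in both, with CD44 sets coloured and 1.5-fold marked by dotted lines. The set 1125_s_at is in the upper right corner at 0.60 and 0.75, and the 3 other CD44 sets lie left of 0 on the x axis and above 0 on the y axis.

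The CD44 probe sets thus parted from each other. In total RNA the difference of 1125_s_at exceeded that of 1126_s_at by 0.88, of 31472_s_at by 0.88, of 2036_s_at by 0.78 and of 40493_at by 1.08. The widest of these gaps, and the gap to 1126_s_at, were between sets designed from 1 GenBank record. In polysomal RNA 1125_s_at exceeded 31472_s_at by 0.71, 2036_s_at by 0.65 and 1126_s_at by 0.47. The order of the other sets was thus not the same in the fractions: 1126_s_at was farther from 1125_s_at than 2036_s_at in total RNA and nearer to it in polysomal RNA.

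The range over the 5 CD44 sets was 1.08 in total RNA. Of 437 other genes with at least 2 measured sets, 3 had a range as wide (0.686%), against a median of 0.19. They were CAMK2G, a calmodulin-dependent kinase, GAS6, a ligand of receptor tyrosine kinases, and CDH1, the adhesion protein E-cadherin, whose sets gave 0.39 and −0.94. In polysomal RNA the CD44 range over 4 sets was 0.71, and 9 of 406 other genes reached it (2.22%), against a median of 0.15. A gene with more sets has more room for a wide range. Only 2 other genes had 5 or more measured sets in total RNA, with a median range of 0.34. In polysomal RNA 6 had 4 or more, with a median range of 0.26, and 0 of all these reached the range of CD44. Nothing is read from the place of CD44 among other genes, since it was chosen with these differences known. With a floor of 6 the CD44 range was 0.45 in polysomal RNA.

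A second measure set each probe set against the mean of the other measured sets of its gene, for the 58 genes with at least 3 sets measured in both fractions. By this measure 1125_s_at stood 0.85 above the 3 other CD44 sets in total RNA and 0.61 above them in polysomal RNA. It was the 1 of 181 probe sets at least 1.5-fold above its gene's other sets in both fractions (0.552%), and 0 were as far below. With a floor of 6 its polysomal deviation was 0.35, under that line, since its RBM35A- value of 5.74 was raised to the floor. Ranked by the smaller of the deviations, it came first, from which nothing is read, since CD44 was chosen with these values known. Next were 2 sets of the endosomal GTPase gene RAB4A, at −0.48 and −0.43 and at 0.40 and 0.39. In total RNA a set of GAS6 deviated as much upward, and in polysomal RNA sets of MYC, PRKAR1A and ITGA6 did, each in that fraction only. Among the other CD44 sets 31472_s_at deviated by −0.32 in total and −0.34 in polysomal RNA, 2036_s_at by −0.19 and −0.26, and 1126_s_at by −0.33 and −0.01. A set that stands apart also moves the mean its neighbours are set against, so these 4 values are not independent.

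**Figure D3:**
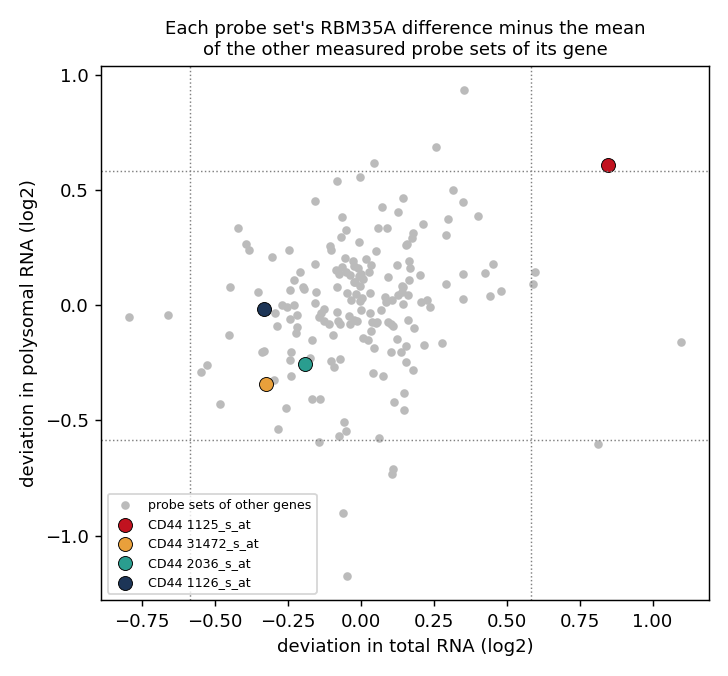
Difference between RBM35A+ and RBM35A- of each probe set minus the mean of the other measured sets of its gene (log2), in total RNA (x) and polysomal RNA (y), for 181 probe sets of 58 genes. Dotted lines mark 1.5-fold. The CD44 set 1125_s_at is alone beyond both upper lines, at 0.85 and 0.61. With a floor of 6 its polysomal value was 0.35, under the line.

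Other genes with well-known RBM35A-regulated exons gave no such comparison. The receptor FGFR2 lay below 5 on all arrays (4.14 and 4.68 in total RNA, 4.20 and 3.94 in polysomal RNA), and so did the catenin CTNND1, between 2.35 and 2.46. The actin regulator ENAH had no probe set annotated to it alone.

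The CD44 probe sets also differed in their level in polysomal relative to total RNA, which is not the share of transcripts on polysomes. Polysomal minus total RNA in RBM35A- cells was −1.85 for 1125_s_at, −1.39 for 31472_s_at, −0.43 for 2036_s_at and −0.35 for 1126_s_at. In RBM35A+ cells it was −1.69, −1.07, −0.15 and 0.22, in the same order of sets. The fractions were normalized apart. With the arrays centred on their medians the value in RBM35A+ cells became 0.09 for 1126_s_at and −0.27 for 2036_s_at, and with joint quantile normalization 0.10 and −0.26. For 40493_at the polysomal arrays lay below the floor, so its differences of −1.11 and −0.63 are lower bounds in size. The median over all measured probe sets was 0.07 in RBM35A- and 0.06 in RBM35A+ cells. At 1.5-fold 3 of the 5 CD44 sets were lower in polysomal RNA in each state, against 19.6% of probe sets in RBM35A- and 19.4% in RBM35A+ cells, and 0 were higher, against 25.3% and 25.7%. The SD of 1 probe set for this quantity was 0.81 in RBM35A- and 0.84 in RBM35A+ cells. The range over CD44 sets was 1.50 and 1.91, which 19% and 12% of other genes with at least 2 measured sets reached.

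The control sets for beta-actin and GAPDH show how strongly such differences followed the position along a transcript. Polysomal minus total RNA in RBM35A- cells came to −4.51 for the 5′ set of beta-actin, −2.29 for the middle set and −0.30 for the 3′ set. For GAPDH it was −1.83, −1.21 and −0.16. In RBM35A+ cells the 5′ values were −5.32 and −2.59. The fall toward the 5′ end was thus steeper in RBM35A+ polysomal RNA, where the 5′ sets differed from RBM35A- cells by −0.86 for beta-actin and −0.79 for GAPDH. The 4 CD44 sets measured in polysomal RNA had differences between 0.04 and 0.75 in that comparison, and 40493_at, below 5, had −0.14 with a floor of 4. In total RNA the 5′ control sets differed by −0.05 and −0.03 and the middle ones by 0.27 and −0.11. The part of probe position in the differences among CD44 sets was not tested.

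**Figure D4:**
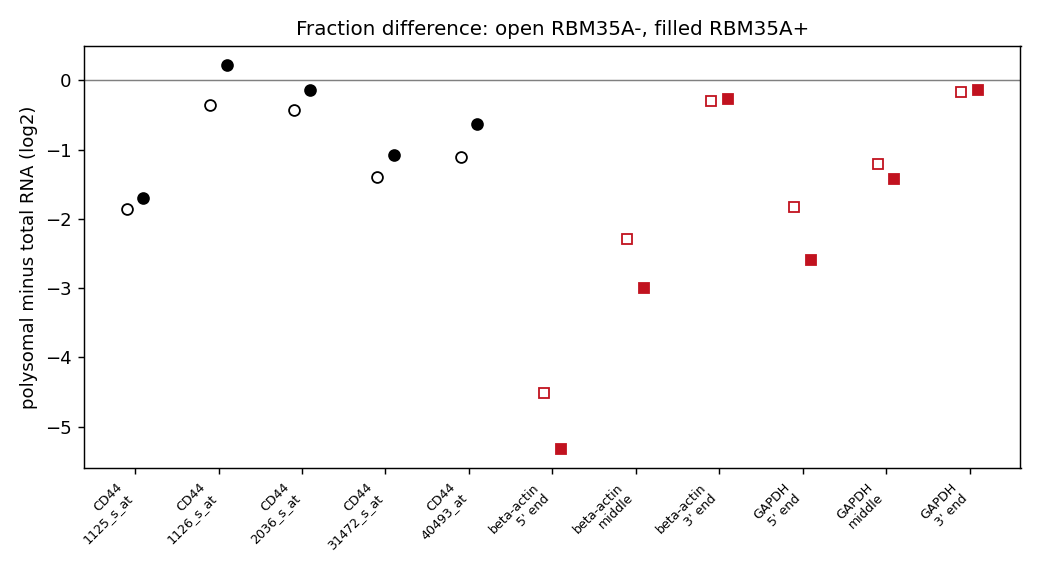
Polysomal minus total RNA (log2) for the 5 measured CD44 probe sets (circles) and for the beta-actin and GAPDH control sets by position (red squares), open for RBM35A- and filled for RBM35A+. In the CD44 sets the filled point is above the open one, and in the 5′ and middle control sets it is below. The values of 40493_at are bounds.

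Each of the 4 CD44 sets measured in both fractions had a higher RBM35A difference in polysomal than in total RNA. This difference of differences was 0.57 for 1126_s_at, 0.32 for 31472_s_at, 0.28 for 2036_s_at and 0.16 for 1125_s_at. The SD of 1 probe set was 0.24, and the median over 3549 probe sets was 0.00, with 50.0% above 0. None (0) reached 1.5-fold, against 1.04% of probe sets higher and 2.68% lower. The value of 1125_s_at lay within the SD and became −0.10 with a floor of 6. The sets share the same 4 RNA samples, so their common direction counts as 1 observation.

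Likeness was measured as the Euclidean distance between patterns over the 4 arrays, each centred on its own mean, among 3003 other genes measured on all arrays. The nearest genes to 2036_s_at were TAF7 (distance 0.02), TWF1 (0.04) and GRSF1 (0.04). Those nearest to 1126_s_at were FKBP9 (0.07), ETFB (0.07) and PAFAH1B3 (0.07), and to 31472_s_at they were CALU (0.08), MAPKAP1 (0.08) and RPA2 (0.11). For 1125_s_at the nearest were CDC20 (0.48), SCD (0.50) and ALDH3A1 (0.51). CDC20 shared its polysomal difference (0.72) but not its difference in total RNA (0.07). SCD and ALDH3A1 shared the drop from total to polysomal RNA, with RBM35A differences of at most 0.20.

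Genes that act on CD44 were described from 6 lists: regulators of its splicing, genes of hyaluronan, ligands and co-receptors, proteases, intracellular partners, and markers found beside it. Where a gene had several probe sets, the one of highest mean level stood for it. In this order the lists had 21, 6, 8, 3, 13 and 13 genes measured in total RNA. In polysomal RNA they had 19, 5, 7, 4, 11 and 11. Across the lists 1 gene was at least 1.5-fold higher and 1 lower in total RNA, and 0 were higher and 3 lower in polysomal RNA. Further probe sets of these genes past the line were all lower and all in polysomal RNA: 1 each of ERBB2, ITGA6, MYC, SMARCA2 (−0.72) and VEGFA. In the same comparison the control sets of beta-actin and GAPDH were at −0.86 and −0.79 at the 5′ end and −0.44 and −0.33 in the middle, and the part of probe position in these calls was not tested. Over all genes 1.54% of 3320 were higher and 0.663% lower in total RNA, and 0.767% of 3391 were higher and 1.3% lower in polysomal RNA. Of all probe sets measured in polysomal RNA, 0.723% of 3871 were higher and 1.7% lower.

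Of 27 regulators of CD44 variable exons, 22 had a probe set and 21 were measured. Their median difference was −0.10 in total RNA, with 15 of 21 below 0, and −0.11 in polysomal RNA, with 13 of 19 below 0. Without sets of shared probes the polysomal median was −0.02. Over all genes the medians were 0.00 and 0.02, with 1636 of 3320 and 1451 of 3391 below 0. HNRNPH1, an hnRNP that binds G-rich RNA, was the 1 member past 1.5-fold, at −0.77 in polysomal RNA (7.12 to 6.35) and −0.15 in total RNA. SAM68, encoded by KHDRBS1, which couples growth factor signals to CD44 exon inclusion, differed by −0.15 and 0.08. TRA2B, which binds exonic enhancers, differed by −0.11 and −0.32, and its relative TRA2A by −0.33 and −0.31. HNRNPM, which opposes inclusion in mesenchymal cells, differed by −0.24 and 0.15.

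Among the SR proteins, SRSF1 differed by −0.12 in total and 0.00 in polysomal RNA (other probe set −0.46 in total RNA), SRSF10 by −0.35 and −0.18 and SRSF3 by −0.07 and −0.37 (other probe set −0.26 and −0.02). HNRNPA1, a repressor of exon use, was highest in total RNA at 0.39 and at −0.11 in polysomal RNA, followed by the poly(C)-binding PCBP1 (0.32 and 0.22). The helicase DDX17 was at −0.10 and 0.15. HNRNPA1 and HNRNPH1 have near-identical copies in the genome, so their probe sets are uncertain as to gene.

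Of the hyaluronan genes, 6 of 18 with a probe set were measured. The median was 0.08 in total and 0.05 in polysomal RNA, and 0 passed 1.5-fold in either direction. CEMIP, which takes part in hyaluronan breakdown, was highest at 0.54 in total RNA (9.98 to 10.53) and 0.22 in polysomal RNA. UGDH, which makes the sugar nucleotide UDP-glucuronate for hyaluronan, followed at 0.25 and 0.14. The matrix proteoglycan VCAN, which binds hyaluronan, was lowest at −0.44 and −0.18 (other probe sets −0.12 and −0.39, and 0.00 and −0.45). The hyaluronidase HYAL2 differed by 0.09 and −0.07. HMMR, another hyaluronan receptor, differed by 0.01 in total RNA and lay below 5 in polysomal RNA.

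Of the ligands and co-receptors, 8 of 19 were measured, with medians of 0.01 and −0.01. LGALS9, a galectin that binds CD44, was 1.84-fold higher in total RNA (7.31 to 8.20, a difference of 0.88) but differed by 0.02 in polysomal RNA. Its other set, below 5 in total RNA, gave 0.40 in polysomal RNA (5.06 to 5.46), and near-identical galectin genes make these sets uncertain. ERBB3, a receptor of the EGFR family, differed by −0.41 in total RNA and 0.23 in polysomal RNA. Its other sets gave −0.39, −0.31, 0.05 and −0.09 in total RNA, and those measured in polysomal RNA gave 0.07, 0.56 and 0.04. EGFR was at 0.26 and −0.01, the cytokine MIF at −0.11 and 0.08, and ERBB2 at 0.04 and −0.25 (other probe sets −0.12 and −0.9995, and −0.04 in total RNA). VEGFA, a growth factor of blood vessels, was at −0.03 and −0.03 (other probe sets −0.02 and −0.07, and 0.09 and −0.76). MET, the receptor that uses CD44 variants as a co-receptor, differed by −0.10 in total RNA (other sets −0.12 and 0.07) and lay near 2.4 in polysomal RNA. SPP1, the ligand osteopontin, was below 5 on every array.

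Of the genes that cleave CD44 or limit its cleavage, 4 of 8 were measured, and 0 passed 1.5-fold. The median was −0.19 over 3 genes in total RNA, 0.00 without sets of shared probes, and 0.00 in polysomal RNA. ADAM10, a sheddase of CD44, differed by −0.19 in total and −0.02 in polysomal RNA. The protease inhibitor TIMP1 differed by −0.25 and 0.03, and NCSTN, a gamma-secretase subunit, by 0.20 and 0.06. The sheddase ADAM17 was measured in polysomal RNA only (−0.09). MMP14, another sheddase, was below 5 on all arrays.

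Of the intracellular partners, 13 of 21 were measured, with medians of 0.08 and 0.02 (−0.04 in polysomal RNA when a gene's probe sets were averaged) and 0 past 1.5-fold. Moesin (MSN), which ties CD44 to actin, differed by 0.14 and 0.31, and ezrin (EZR) by 0.08 and −0.09. Merlin, the product of NF2 that competes with them for CD44, differed by 0.26 and 0.53 (other probe set −0.31 in total RNA). The GTPase CDC42 was highest in total RNA at 0.38 and at −0.08 in polysomal RNA. The kinases LYN (−0.22 and −0.08) and ROCK2 (−0.18 and 0.22) were lowest in total RNA, and the kinase SRC was at 0.26 there. In polysomal RNA the ankyrin ANK3 (−0.16) and the GTPase RHOA (−0.10, other probe set 0.003) were lowest by the set of highest mean. Other sets of LYN gave −0.17 and 0.01 there, and the GTPase RAC1 was at 0.05 (other probe set −0.13).

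Of the stem cell and surface markers found beside CD44, 13 of 18 were measured, with medians of −0.03 in each fraction (−0.12 in polysomal RNA when a gene's probe sets were averaged). The crypt factor ASCL2 was lower in total RNA (7.36 to 6.72, −0.64) and below 5 in polysomal RNA. MYC (8.04 to 6.77, −1.27) and the ephrin receptor EPHB3 (11.52 to 10.59, −0.93) were lower in polysomal RNA, with −0.21 and −0.47 in total RNA. Other probe sets of MYC gave −0.69 and −0.04 in polysomal RNA. Among the other members, EPCAM was at 0.10 and 0.06, ALCAM at −0.12 and 0.18 and CD24 at −0.03 and −0.22. TSPAN8 was at 0.11 and 0.24, ITGA6 at 0.18 and −0.03 and ALDH1A1 at 0.18 in total RNA. Other sets of ITGA6 gave 0.12 and −1.23, and 0.15 and −0.07.

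**Figure D5:**
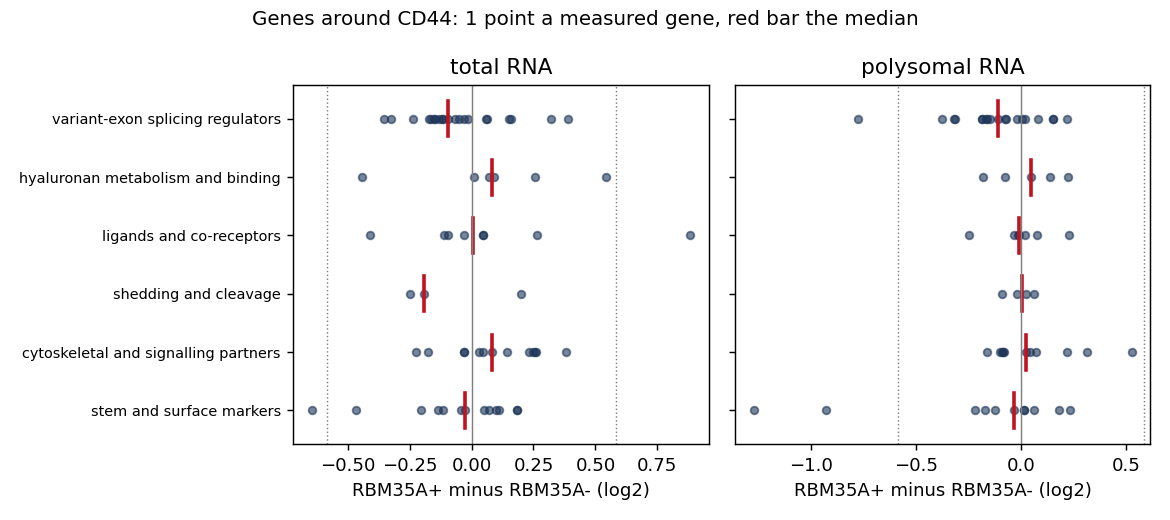
RBM35A+ minus RBM35A- (log2) in total RNA (left) and polysomal RNA (right) for the measured genes of 6 lists around CD44, with 1 point a gene, the median as a red bar and 1.5-fold as dotted lines. LGALS9 (0.88) and ASCL2 (−0.64) are the points past the lines in total RNA, and MYC (−1.27), EPHB3 (−0.93) and HNRNPH1 (−0.77) those in polysomal RNA.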

How the data were processed

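Total and polysomal RNA of LS180 cells were labelled from 10 µg each and read on 4 arrays, 1 a group. The deposited values are log2 values that the authors made with GCRMA, per the submitters' processing notes (version not given in the sources used here). Sorted values differed by at most 4.29e-06 within the total RNA pair and 6.61e-06 within the polysomal pair, against 0.227 between fractions. Each pair was thus normalized apart, and a shift of most genes within a pair would be removed. Array number limits the precision.

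Of 12626 probe sets, 10943 had 1 gene symbol, 546 several, 1070 none, and 67 were controls. By gene ID 10934 matched RefSeq (GRCh38.p14 table, names and transcript numbers only). Values under 5 were raised to 5. A comparison used probe sets at 5 or more on at least 1 of its arrays. Differences were counted at 1.5-fold, with no p-value. Computation used Python 3.11.15 with pandas 2.3.3 and numpy 2.4.6, and was tested on simulated data. Named genes were every CD44 set, list members past 1.5-fold, the 2 highest and 2 lowest of each list in each fraction, fixed regulators and partners, and the 3 genes nearest in pattern. CDH1, PKM, UBE3B, CYP1A1, CAMK2G, GAS6, RAB4A, PRKAR1A and other further names were chosen after their values were seen. The members and lists were chosen with earlier results of these data known. Alternatives were floors of 4 and 6, no floor, median centring, joint quantile normalization, a 2-fold line, the mean of a gene's probe sets and leaving out sets of shared probes. For this last setting all sets with the suffix _s, _f, _g, _r or _i were left out.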

Additional observations from a re-analysis of the deposited data

Results flagged for a closer look

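The CD44 set 1126_s_at had RBM35A differences of opposite sign in the fractions, −0.29 in total RNA and 0.29 in polysomal RNA, each larger than the SD of 1 probe set (0.21 and 0.19). The difference of differences was 0.57. Opposite signs were also seen for 31472_s_at (−0.28 and 0.04) and 2036_s_at (−0.18 and 0.10). Their polysomal differences lay within the SD of 1 probe set. With 1 array a group this was not tested.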

How the results depend on the processing

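No paired analysis was possible because each group had 1 array and the labels give no replicate numbers. Of 105 recomputed differences of single CD44 sets 104 kept their sign. For sets measured on all arrays a floor of 4 or no floor returns the same value by construction. Many of these outcomes were thus fixed in advance, and the count is no measure of robustness. With a floor of 6, 1125_s_at had 0.49 in polysomal RNA and −0.10 for the difference of differences, the 1 value of other sign. With that floor 40493_at had −0.11 in total RNA and −0.11 for polysomal minus total in RBM35A- cells. The CD44 ranges were then 0.88 in total RNA, 0.45 in polysomal RNA and 0.68 for the difference of differences. In RBM35A+ cells the polysomal minus total value of 40493_at was −1.47 with a floor of 4 and −1.47 without a floor. In each of these the values raised to the floor are the ones that moved. The stand of 1125_s_at above the other CD44 sets ran from 0.84 to 0.90 in total RNA and from 0.35 (floor of 6) to 0.68 in polysomal RNA. Leaving out sets of shared probes keeps only 40493_at, so no range could be given.

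Counts of probe sets moved too. Lower calls in total RNA went from 38 to 69 with a floor of 4 and 17 with a floor of 6, and higher calls in polysomal RNA from 28 to 18 with a floor of 6. Higher calls for the difference of differences went from 37 to 64 with a floor of 4. At 2-fold there were 6 higher and 0 lower in total RNA and 0 and 9 in polysomal RNA. There were 553 and 384 for polysomal minus total RNA in RBM35A- cells, 578 and 392 in RBM35A+ cells, and 4 and 14 for the difference of differences. At 2-fold the 6 lists held 0 higher and 0 lower members in total RNA and 1 lower in polysomal RNA, MYC. Without sets of shared probes the median of the splicing regulators in polysomal RNA was −0.017 and that of the proteases in total RNA 0.0028. When a gene's probe sets were averaged the polysomal medians were −0.043 for the intracellular partners, −0.12 for the stem cell and surface markers and −0.13 for the epithelial markers. The medians of the ligands in total RNA (0.0071) and of the proteases in polysomal RNA (0.0038) changed sign under some settings.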
